A study of Mus musculus with 24 samples.

Results

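The E2F and Rb family was represented by 10 genes, 6 E2F transcription factors (E2f1, E2f2, E2f3, E2f4, E2f7 and E2f8), the 3 pocket proteins (Rb1, Rbl1 and Rbl2) and the dimerization partner Tfdp1, which were picked by gene name from the 25755 genes of the deposited tables. RNA-seq was performed on dermal papilla (DP) cells, the mesenchymal cells at the base of the hair follicle, which were isolated by repeated sorting for YFP from the back skin of individual mice. Corin-Cre, a DP driver of the postnatal follicle, was used to delete Hdac1 and Hdac2, a pair of class I histone deacetylases. Double mutants (dM1/2) were Cor-cre/+ and Flox/Flox at both Hdac1 and Hdac2, whereas controls carried Corin-Cre with floxed Hdac1 and/or Hdac2 in several genotypes, some of them homozygous for one of the floxed genes, and the genotype of each control library was not given. Libraries were made at P20 (first telogen), P24 (early anagen), P28 (mid anagen) and P60 (second telogen), with 3 control and 3 dM1/2 mice in each of the 4 ages and 24 libraries in all.

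E2F proteins bind DNA as dimers with a DP subunit such as Tfdp1. In quiescent cells, the pocket proteins bind E2Fs and recruit histone deacetylases to the promoters of cell-cycle genes, and phosphorylation of the pocket proteins by cyclin-dependent kinases releases the activators E2f1, E2f2 and E2f3. The atypical members E2f7 and E2f8 bind DNA without a DP subunit, are themselves E2F targets and repress the same promoters later in S phase. DP cells are known as cells that seldom divide.

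Values are normalized reads, the read counts of a gene divided by the size factor of its library. Telogen libraries held 8171944 to 13369732 reads in genes and anagen libraries 35469841 to 49331751, so that values of the low members E2f2 and E2f8 rested on few reads in telogen. Mice were female at P20 and male at P24 and P28 by their labels, the P60 libraries held Xist and no Ddx3y reads, and stage, sex and depth cannot be told apart. Hdac1 was lower in every dM1/2 library than in every control library at P24, with 209, 188 and 116 normalized reads against 675, 668 and 668, and the difference passed the test (log2 fold change -2.01 ± 0.22 SE, adjusted p = 0.00167). At P28, the dM1/2 libraries held 190, 149 and 126 normalized reads of Hdac1 and overlapped with the control libraries at 214, 529 and 105 (adjusted p = 0.454). At P20, Hdac1 held 216, 370 and 270 in dM1/2 and 375, 511 and 505 in controls, just without overlap. At P60, it held 371, 347 and 318 in dM1/2 and 506, 360 and 376 in controls, with overlap. Hdac2 was called at no age, its log2 fold changes being -0.01, 0.27, 0.16 and 0.08 in order of age, and its reads were counted over the whole gene and not over the floxed exons. The 3 control libraries at P28 stood apart from each other. Dpt, a dermal fibroblast gene, held 11034, 18686 and 1083 normalized reads in control libraries 1, 2 and 3, and E2f1 was ordered in the same way.

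In the GENCODE annotation of GRCm38, whose union of exons gave the lengths, the E2F genes lie as follows: E2f1 (ENSMUSG00000027490) at chr2:154559407-154569892, E2f2 (ENSMUSG00000018983) at chr4:136172394-136196057, E2f3 (ENSMUSG00000016477) at chr13:29906575-29986063, E2f4 (ENSMUSG00000014859) at chr8:105297663-105305370, E2f7 (ENSMUSG00000020185) at chr10:110745439-110787384 and E2f8 (ENSMUSG00000046179) at chr7:48866429-48881596. The partner genes are Rb1 (ENSMUSG00000022105) at chr14:73183673-73325822, Rbl1 (ENSMUSG00000027641) at chr2:157145893-157204534, Rbl2 (ENSMUSG00000031666) at chr8:91070057-91123844 and Tfdp1 (ENSMUSG00000038482) at chr8:13338751-13378448.

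Levels of different genes were compared per kb of exon. In P24 controls, Tfdp1 was the highest with 198 ± 14.7 (SD, n = 3) normalized reads per kb, followed by E2f4 with 123 ± 7.18 and Rbl2 with 113 ± 7.16, of which the last pair overlapped within 1 SD. E2f3 with 83.8 ± 12.3, E2f1 with 62.3 ± 10.1, Rb1 with 60.6 ± 17.5 and Rbl1 with 57.4 ± 11.0 formed a middle group in which neighbours in this order did not differ beyond their spread. E2f2, E2f7 and E2f8 were the lowest, with 14.0 ± 3.07, 10.8 ± 3.68 and 10.2 ± 5.66. In P24 dM1/2 libraries, E2f8 stood at 53.6 ± 10.7 normalized reads per kb, E2f7 at 36.3 ± 6.62 and E2f2 at 31.9 ± 10.6, and neighbours in this order overlapped within 1 SD.

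**Figure D1:**
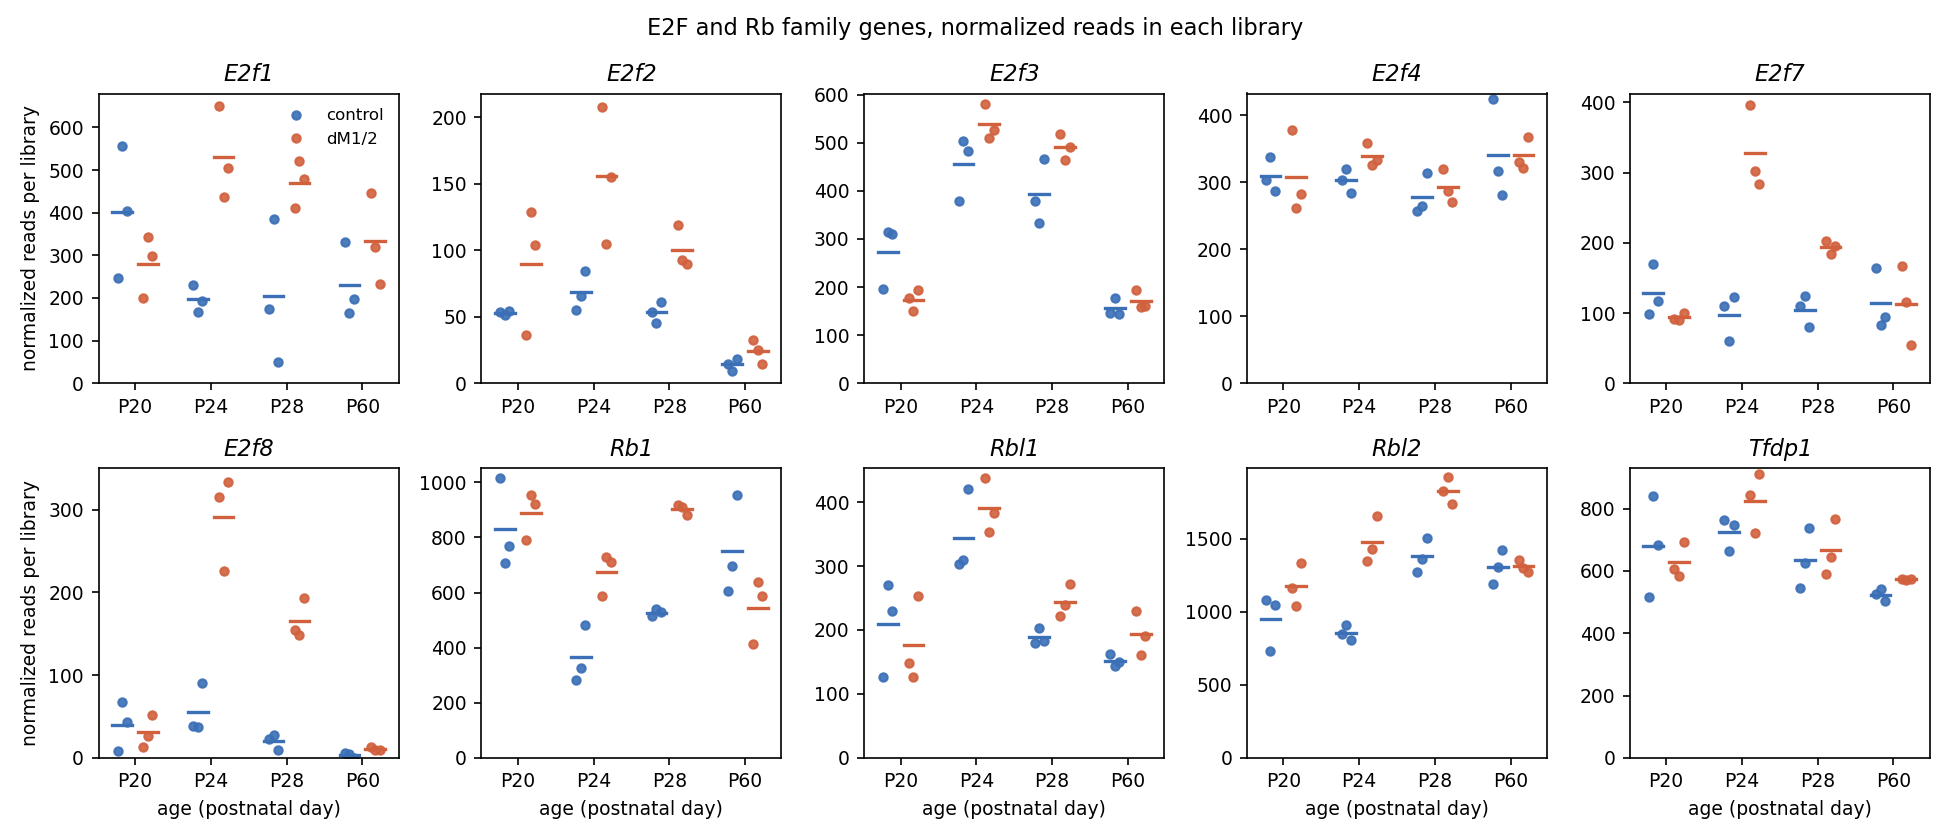
Normalized reads (y axis, linear from 0, scaled for each gene) of the 10 genes in each of the 24 libraries by postnatal age (x axis), with control libraries in blue, dM1/2 libraries in orange and bars at the mean of 3 libraries. E2f1, E2f2, E2f7, E2f8, Rb1 and Rbl2 are higher in every dM1/2 library than in every control library at P24 and P28. No difference between the genotypes was called at any age for E2f3, E2f4, Rbl1 and Tfdp1.

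To ask whether the ablation changed the family in anagen, dM1/2 and control libraries were compared at each age with limma on log2(normalized reads + 1), in genes averaging 10 normalized reads or more, and a gene was called at an adjusted p under 0.05 over all genes tested. At P24, 6 of 10 members were higher in dM1/2 (E2f1, E2f2, E2f7, E2f8, Rb1 and Rbl2) and 0 were lower, while 14.8% of all genes tested were higher and 11.8% lower. At P28, 5 of 10 were higher (E2f2, E2f7, E2f8, Rb1 and Rbl2) and 0 lower, beside 20% and 15.6% of all genes. The median log2 fold change of the members was 0.85 at P24 and 0.59 at P28, and that of all genes tested was -0.01 and 0.00. All 3 dM1/2 libraries were above all 3 control libraries for 8 of 10 members at P24, against 23.8% of all genes tested, and for 7 of 10 at P28, against 28%.

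**Figure D2:**
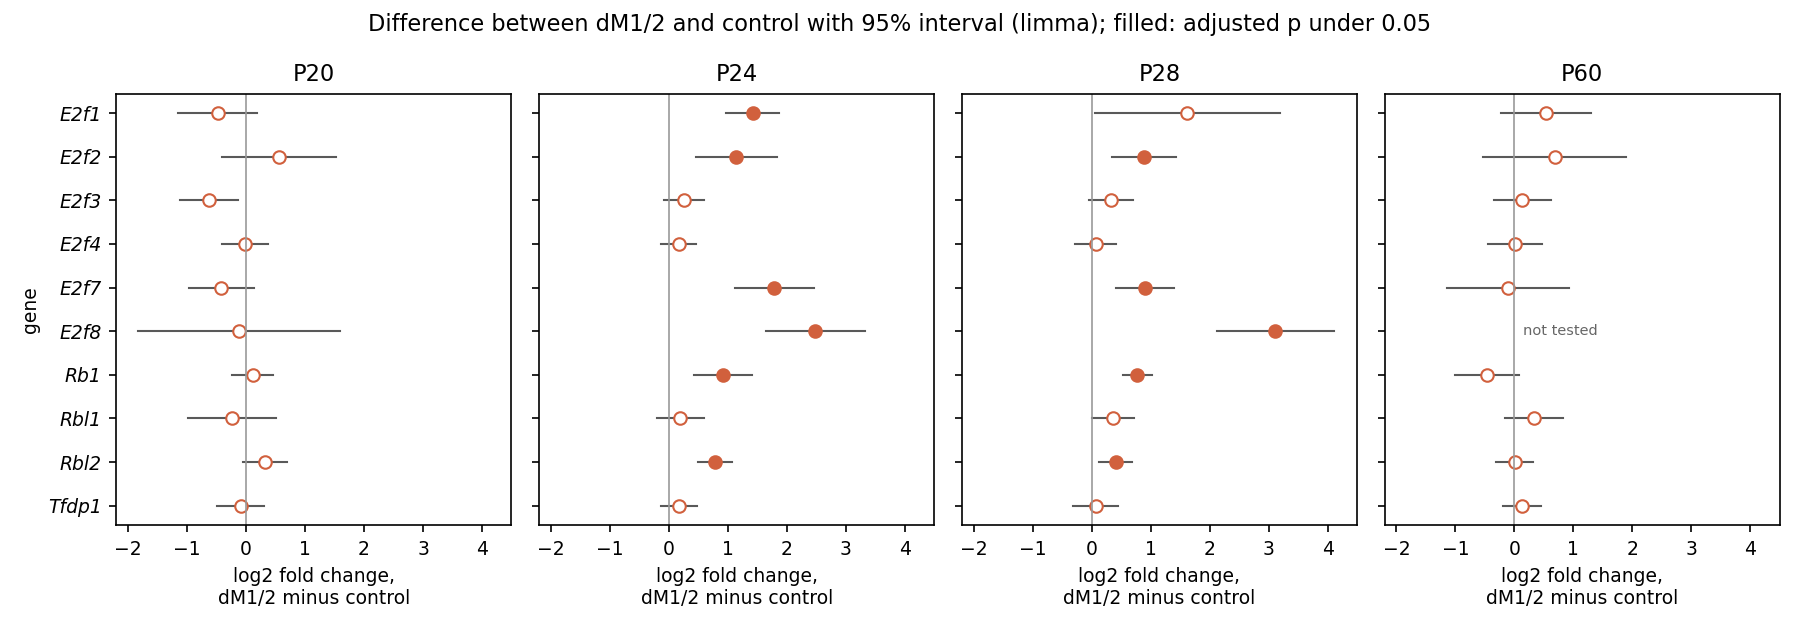
Log2 fold change of dM1/2 against control (x axis) for each gene (y axis) at the 4 ages, with lines for the 95% interval and filled points for an adjusted p under 0.05 in limma. Filled points appear at P24 (6 genes) and P28 (5 genes) only, and the interval of E2f1 at P28 runs from 0.06 to 3.19. E2f8 was not tested at P60.

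Among the activators, which switch on the genes of DNA replication, E2f1 held 230, 167 and 193 normalized reads in P24 controls and 650, 437 and 505 in dM1/2. The groups did not overlap, and E2f1 was 2.68-fold higher (log2 1.42 ± 0.19 SE, adjusted p = 0.00296). At P28, E2f1 held 175, 386 and 50.4 normalized reads in controls and 411, 521 and 478 in dM1/2. Every dM1/2 library was again above every control library, but the controls spread widely and the 3.09-fold difference did not pass the test (log2 1.63 ± 0.66 SE, adjusted p = 0.0989). Without control library 2 the adjusted p was 0.0117 with a log2 fold change of 2.30, and without control library 3 it was 0.0627 with 0.84. Between the P28 control libraries, the summed reads of 7 dermal fibroblast markers other than Col1a1 were 51060, 63667 and 21620, against 20525 to 24205 in the dM1/2 libraries, and the part of these cells in the E2f1 values was not tested.

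E2f2 was low throughout. It held 54.9, 65.8 and 84.6 normalized reads in P24 controls and 208, 104 and 155 in dM1/2, without overlap, a 2.21-fold difference (log2 1.14 ± 0.29 SE, adjusted p = 0.0263). At P28, it held 53.9, 45.5 and 61.4 in controls and 119, 92.6 and 89.5 in dM1/2, again without overlap and 1.85-fold higher (log2 0.89 ± 0.23 SE, adjusted p = 0.0229). Neither call held when single libraries were left out: at P24, the adjusted p was 0.0704 without control 1, 0.0785 without control 2, 0.0855 without dM1/2 library 1 and 0.0828 without dM1/2 library 3, and at P28, it was 0.0700 without control 1 and 0.0574 to 0.0677 without each dM1/2 library in turn. E2f3, another activator, held 379, 503 and 483 normalized reads in P24 controls and 580, 510 and 526 in dM1/2. These groups did not overlap, but the log2 fold change of 0.25 ± 0.15 SE did not pass (adjusted p = 0.243). At P28, E2f3 held 380, 332 and 466 in controls and 518, 465 and 492 in dM1/2 (log2 0.34 ± 0.16 SE, adjusted p = 0.141, and 0.0378 without control 3).

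E2f4, which mostly acts as a repressor in complex with Rbl1 and Rbl2, had the smallest fold difference of the family at P24. It held 304, 320 and 285 normalized reads in P24 controls and 359, 326 and 333 in dM1/2, just without overlap. Over all ages, its normalized reads lay between 257 and 424 in all controls and between 261 and 377 in all dM1/2 libraries. The log2 fold change was 0.17 at P24 (95% interval -0.13 to 0.46) and 0.07 at P28 (-0.28 to 0.42), with adjusted p = 0.369 and 0.743.

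The atypical repressors showed the highest fold differences in the family at P24. E2f7 held 110, 59.7 and 122 normalized reads in P24 controls and 395, 303 and 284 in dM1/2. The groups were far apart, and E2f7 was 3.45-fold higher (log2 1.79 ± 0.29 SE, adjusted p = 0.00497). At P28, E2f7 held 110, 124 and 79.6 in controls and 202, 183 and 196 in dM1/2, 1.88-fold higher (log2 0.91 ± 0.21 SE, adjusted p = 0.0151). This call missed the threshold without dM1/2 library 1, 2 or 3 (adjusted p = 0.0507, 0.0524 and 0.0585). E2f8 held 37.9, 37.2 and 90.9 normalized reads in P24 controls and 315, 225 and 334 in dM1/2, 5.6-fold higher (log2 2.49 ± 0.36 SE, adjusted p = 0.00358). At P28, E2f8 held 23.1, 27.5 and 9.10 in controls, from 53, 43 and 24 reads, and 154, 148 and 194 in dM1/2, 8.66-fold higher (log2 3.12 ± 0.42 SE, adjusted p = 0.00200). The lowest dM1/2 library was above the highest control library at both ages, and both E2f8 calls held without any 1 library.

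Promoters are shown for E2f8 and E2f7, the members with the highest fold differences at P24, and for E2f3 and Rbl1, whose E2F match lay nearest to the start. The 250 bases before the annotated start were taken from RefSeq (GRCm38.p6), on the strand of the gene. RefSeq windows were at hand for 8 of 10 members, E2f1, E2f2, E2f3, E2f7, E2f8, Rbl1, Rbl2 and Tfdp1. The lines give E2f8 at chr7:48881597-48881846, minus strand, and E2f7 at chr10:110745189-110745438, plus strand. E2f3 is given before the more upstream of its annotated starts, at chr13:29986064-29986313, minus strand, and Rbl1 at chr2:157204535-157204784, minus strand. Capitals mark exact matches, on either strand, to the E2F motifs TTTCCCGC, TTTCGCGC, TTTGCCGC or TTTGGCGC and to the CHR motif TTTGAA, an element of G2/M promoters.
E2f8: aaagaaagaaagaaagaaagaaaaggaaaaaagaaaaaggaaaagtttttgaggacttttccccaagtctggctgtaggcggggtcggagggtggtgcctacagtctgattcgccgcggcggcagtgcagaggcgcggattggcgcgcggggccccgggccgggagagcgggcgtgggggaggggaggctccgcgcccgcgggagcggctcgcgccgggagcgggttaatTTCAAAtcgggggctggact
E2f7: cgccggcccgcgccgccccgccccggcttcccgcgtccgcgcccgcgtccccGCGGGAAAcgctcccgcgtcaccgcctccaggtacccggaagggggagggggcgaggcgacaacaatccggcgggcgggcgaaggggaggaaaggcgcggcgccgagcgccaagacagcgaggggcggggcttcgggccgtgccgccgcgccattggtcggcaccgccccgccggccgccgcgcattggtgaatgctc
E2f3: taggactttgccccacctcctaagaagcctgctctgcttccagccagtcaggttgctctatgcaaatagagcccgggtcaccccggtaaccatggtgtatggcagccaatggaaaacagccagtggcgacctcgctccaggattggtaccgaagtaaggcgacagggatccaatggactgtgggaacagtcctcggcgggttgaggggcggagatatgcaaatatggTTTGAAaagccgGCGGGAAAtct
Rbl1: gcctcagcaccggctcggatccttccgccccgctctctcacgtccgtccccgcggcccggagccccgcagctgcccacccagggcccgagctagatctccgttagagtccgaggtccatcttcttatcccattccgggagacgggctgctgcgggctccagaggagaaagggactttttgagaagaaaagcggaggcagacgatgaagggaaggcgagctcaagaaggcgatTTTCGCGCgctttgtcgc
E2f7 had TTTCCCGC on the minus strand, 198 to 191 bases before the start. E2f3 had the same motif 11 to 4 bases before the start and a CHR match 23 to 18 bases before it, and Rbl1 had TTTCGCGC 18 to 11 bases before its start. E2f8 had no E2F match and a CHR match 20 to 15 bases before the start. Of the windows not shown, those of E2f1, E2f2 and Rbl2 and the other window of E2f3 had no E2F match. The E2f1 window and this other E2f3 window lay wholly inside their genes in GENCODE (250 of 250 bases). The bases before the GENCODE start of E2f1 were thus not searched, and nothing is said about E2F motifs there. Tfdp1, which was called at no age, had TTTCGCGC in each of its windows, which overlap and hold the same site. Rbl2 and a window of E2f2 had a CHR match, and this E2f2 window also lay wholly inside its gene. Among all 32851 windows of this length, 1.86% held any of the 4 E2F motifs and 16% the CHR motif. The matches are a description of these letters and none was tested for binding.

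Of the pocket proteins, Rb1 and Rbl2 were higher in dM1/2 at both anagen ages, and Rbl1 passed at neither. Rb1, the retinoblastoma protein that binds the activators, held 284, 326 and 483 normalized reads in P24 controls and 588, 729 and 710 in dM1/2. The groups did not overlap, and Rb1 was 1.89-fold higher (log2 0.92 ± 0.21 SE, adjusted p = 0.0170). The adjusted p was 0.0625 without control 2 and 0.0596 and 0.0622 without dM1/2 libraries 2 and 3. At P28, Rb1 held 513, 541 and 528 in controls and 917, 909 and 880 in dM1/2, and the groups were far apart. This 1.71-fold difference (log2 0.77 ± 0.10 SE, adjusted p = 0.00192) held without any 1 library.

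Rbl2 encodes p130, the pocket protein of quiescent cells. It held 845, 912 and 805 normalized reads in P24 controls and 1348, 1431 and 1654 in dM1/2, 1.73-fold higher and without overlap (log2 0.79 ± 0.12 SE, adjusted p = 0.00434). At P28, it held 1274, 1365 and 1506 in controls and 1826, 1925 and 1736 in dM1/2, 1.33-fold higher (log2 0.41 ± 0.12 SE, adjusted p = 0.0322). The P28 difference missed the threshold without control 1 (adjusted p = 0.136), control 2 (0.0574) or dM1/2 library 1 (0.0641), 2 (0.115) or 3 (0.0771), and the P24 difference held without any 1 library. Rbl1 encodes p107, which is itself an E2F target in cycling cells. It held 303, 309 and 420 normalized reads in P24 controls and 438, 353 and 383 in dM1/2, with overlap (log2 0.19 ± 0.17 SE, adjusted p = 0.441). At P28, it held 179, 204 and 183 in controls and 221, 239 and 272 in dM1/2, without overlap but short of the threshold (log2 0.37 ± 0.15 SE, adjusted p = 0.105).

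Exons of Rb1 share 408 bases with Lpar6 and 488 with Rcbtb2, and exons of Rbl2 share 693 bases with Aktip, all on the opposite strand. The library kit kept strand, but the strand setting of the counting was not given, and reads in shared bases could be assigned or dropped accordingly. Rcbtb2 was lower in dM1/2 at P24 and P28 (log2 -1.12 and -0.94, adjusted p = 0.00211 and 0.00292), opposite to Rb1. Lpar6 was higher at P24 (log2 0.74, adjusted p = 0.01), in the same direction as Rb1. Its effect changed by log2 -0.03 from P24 to P28 (limma, difference between genotypes, adjusted p = 0.986). Aktip was lower at P28 (log2 -0.85, adjusted p = 0.00517), opposite to Rbl2. The part of shared bases in the Rb1 and Rbl2 differences was not tested. E2f8, E2f7 and Rbl2 also share 610, 86 and 892 exon bases with the opposite-strand genes Gm2788, 1700020G17Rik and Gm45464, which were not analysed here.

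Tfdp1, the DP subunit shared by most E2Fs, held 664 to 764 normalized reads in P24 controls and 721 to 910 in dM1/2, and 547 to 737 against 591 to 766 at P28. The groups overlapped at both ages, with log2 fold changes of 0.18 (95% interval -0.12 to 0.49) and 0.07 (-0.31 to 0.45). Of the 3 subunits outside the family list, Tfdp2, the other DP partner, was higher in dM1/2 at both ages. It held 661, 633 and 663 normalized reads in P24 controls and 940, 958 and 983 in dM1/2 (log2 0.56 ± 0.10 SE, adjusted p = 0.00761), and at P28, 577, 541 and 557 against 1087, 1188 and 937 (log2 0.93 ± 0.13 SE, adjusted p = 0.00209). E2f6, a repressor that does not bind pocket proteins, was higher at P28 (log2 0.55 ± 0.16 SE, adjusted p = 0.0366) and did not pass at P24 (0.28 ± 0.12 SE, adjusted p = 0.132). E2f5 passed at neither age, with log2 fold changes of -0.33 and 0.29.

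In telogen, 0 of 10 members were called at P20, where 0.433% of all genes tested were called in either direction, and 0 of 9 at P60, where 0% were. At P20, 1 member, E2f3, was under an unadjusted p of 0.05, as were 19.8% of all genes, and edgeR and DESeq2 called no member. E2f3 held 196, 314 and 310 normalized reads in P20 controls and 177, 150 and 194 in dM1/2, just below all controls (log2 -0.62 ± 0.22 SE, adjusted p = 0.168, and 0.0264 without control 1). At P60, no member was under an unadjusted p of 0.05, against 3.74% of all genes, limma and edgeR called 0 genes and DESeq2 26, none of them a member. Rb1 held 607, 696 and 955 normalized reads in P60 controls and 412, 639 and 586 in dM1/2, with overlap (log2 -0.46 ± 0.23 SE, adjusted p = 0.986). E2f8 was under the filter at P60, with 3, 2 and 0 reads in controls, the last of which allows up to 6.92 normalized reads, and 5, 4 and 4 reads in dM1/2. At P20, it held 8.04, 67.6 and 43.0 normalized reads in controls and 13.6, 26.6 and 51.8 in dM1/2, with wide overlap. These floors cover counting error only.

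To compare the ablation effect across stages, the mean effect at P24 and P28 was set against that at P20 and P60 in 1 fit over all 24 libraries. The signed effect was higher in anagen for E2f1, E2f3, E2f7, Rb1 and Rbl2 and lower for 0 of 10 members. Of all genes tested, 16.1% were higher and 14.1% lower. E2f8 also passed but is not counted here, for the reason given with its value. Rb1 had the lowest adjusted p of the family, with a difference of effects of 1.02 ± 0.20 SE on the log2 scale (adjusted p = 0.000755). In order of age, its log2 effects were 0.11, 0.92, 0.77 and -0.46. The difference of effects was 1.61 ± 0.35 for E2f7 (adjusted p = 0.00168), 0.43 ± 0.13 for Rbl2 (0.0191) and 1.49 ± 0.48 for E2f1 (0.0241). For E2f3, it was 0.54 ± 0.18 (0.0281), although E2f3 was called at no single age, and 6 of the 24 fits without 1 library gave an adjusted p of 0.0505 to 0.0563. The signed contrast of E2f3 took in log2 effects of -0.62 at P20 and 0.14 at P60 against 0.25 and 0.34 in anagen. For E2f8, it was 1.99 ± 0.71 (0.0403), and 16 of those 24 fits gave 0.0527 to 0.0797. E2f8 passed the filter of this fit through the other ages, and its P60 effect there, 1.74 on the log2 scale, rested on 0 to 5 reads per library, so that its value in this contrast is no measure of a stage difference. E2f2, E2f4, Rbl1 and Tfdp1 did not pass, with differences of 0.39, 0.12, 0.23 and 0.11.

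From early to mid anagen, 0 of 10 members were called in controls (1.46% of all genes tested), and 4 were under an unadjusted p of 0.05, as were 18.6% of all genes. Rbl2 was closest, with 845, 912 and 805 normalized reads at P24 and 1274, 1365 and 1506 at P28, without overlap (log2 0.69 ± 0.12 SE, adjusted p = 0.0502, and 0.0239 in a fit over the 12 control libraries of all ages). In dM1/2, 2 members were lower at P28 than at P24 (2.67% of all genes), E2f7 (log2 -0.74 ± 0.16 SE, adjusted p = 0.0499) and Rbl1 (-0.68 ± 0.14 SE, adjusted p = 0.0470). Both calls were close to the threshold, and leaving out any 1 of the 6 dM1/2 libraries left 0 or 1 of them. E2f8 fell short of it (log2 -0.80 ± 0.19 SE, adjusted p = 0.0672). The change from P24 to P28 differed between genotypes for 0 of 10 members (0.707% of all genes), with 2 members under an unadjusted p of 0.05, as were 11.9% of all genes.

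Over the 4 ages in controls, E2f2, E2f3, Rb1, Rbl1 and Rbl2 of the 10 members differed in an F test, as did 49% of all genes tested. E2f8 also passed, but it is not counted, since it held 0 to 3 reads in the P60 controls. This number of members is near the share of all genes and is not read as a trait of the family. Between P24 and P60, in a contrast of the same fit that was added after the data were seen and in which 36% of all genes were called, E2f2 was 4.63-fold (adjusted p = 0.000319), E2f3 2.91-fold (adjusted p = 0.000410) and Rbl1 2.24-fold (adjusted p = 0.00497) higher at P24. E2f8 was also called (adjusted p = 0.00690), but it passed the filter through the other ages and, with 0 to 3 reads in the P60 controls, its fold is not given. Rb1 was higher at P60, 2.08-fold (adjusted p = 0.00425), and so was Rbl2, 1.53-fold (adjusted p = 0.00984). Rb1 in controls thus held 284 to 483 normalized reads in early anagen against 607 to 1015 in both telogens, without overlap. The P28 controls, at 513, 541 and 528, lay between these ranges. The P24 dM1/2 libraries held 588, 729 and 710, all above the P24 controls, and 2 of the 3 were within the range of the telogen controls. Stage, sex and depth cannot be told apart in these comparisons between ages.

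Per kb of exon, the summed level of E2f7 and E2f8 was 12.5%, 8.46% and 18.1% of that of E2f1, E2f2 and E2f3 in P24 controls and 28.7%, 29.5% and 32.2% in dM1/2. At P28, it was 12.1%, 9.73% and 9.19% in controls and 20.3%, 17.6% and 22% in dM1/2. The groups did not overlap at either age. In telogen, all 12 libraries lay between 7.28% and 14.3%. Rb1 made up 22.5% to 31.3% of the pocket protein level in P24 controls and 28.0% to 32.8% in dM1/2, and 27.7% to 30.1% and 33.9% to 35.4% at P28, without overlap at P28. In telogen, this share was 42.0% to 50.7% in P20 controls and 41.2% to 50.0% in P20 dM1/2, and 35.4% to 42.6% in P60 controls and 23.9% to 34.8% in P60 dM1/2, the last of which reached into the anagen range. Rbl2 was the leading pocket protein in every anagen group.

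**Figure D3:**
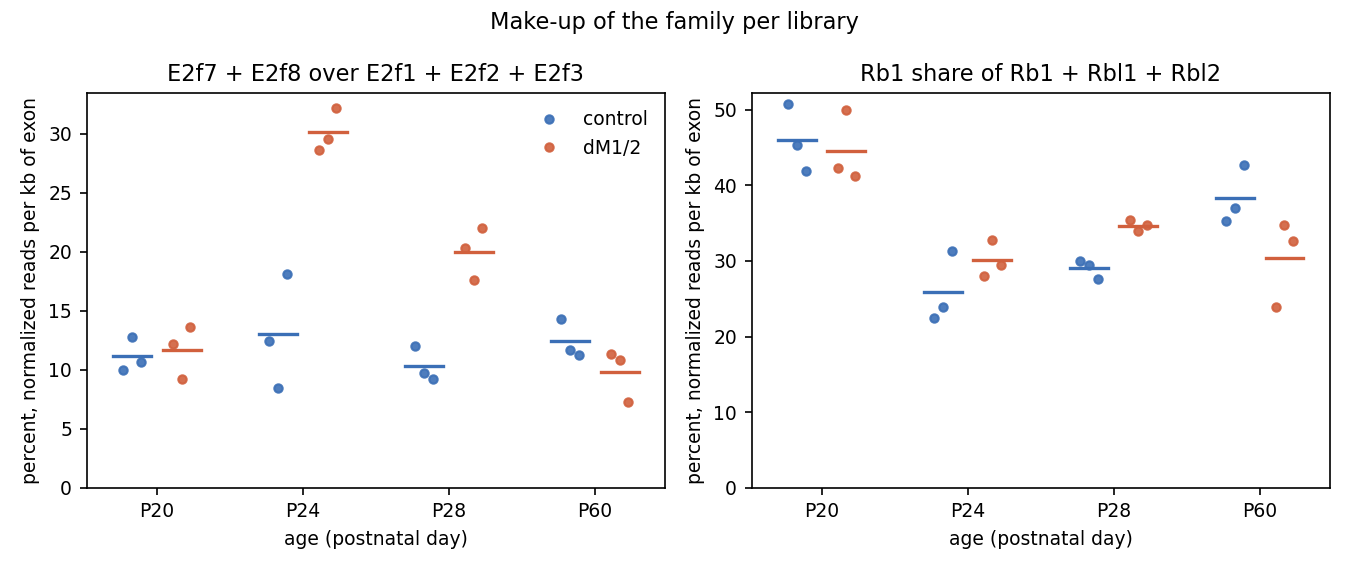
Left, summed E2f7 and E2f8 as a percent of summed E2f1, E2f2 and E2f3, and right, Rb1 as a percent of the 3 pocket proteins, both in normalized reads per kb of exon (y axis from 0) in each library by age (x axis), with bars at the mean of 3 libraries. On the left, dM1/2 libraries (orange) are above controls (blue) at P24 and P28, at 17.6% to 32.2% against 8.46% to 18.1%.

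The genes around the family were described by lists. Of all genes tested, 14.8% were higher and 11.8% lower at P24, and 20% and 15.6% at P28. Of 32 E2F targets of G1/S, the genes of DNA replication, 30 were higher in dM1/2 at P24 and 31 at P28, with 0 lower and median log2 fold changes of 1.35 and 1.94. Of 24 targets of G2/M, 22 and 24 were higher, with medians of 1.67 and 3.27. The medians of all genes tested were -0.01 and 0.00. At P28, the largest differences were in Mcm10 (14.3-fold), Uhrf1 (11.8-fold) and Mcm5 (9.82-fold) among G1/S genes, which act in replication and DNA methylation upkeep, and in Cdc25c (25.4-fold), Cdk1 (20.1-fold) and Ube2c (14.7-fold) among G2/M genes, which drive entry into and exit from mitosis. Mcm10 and Cdc25c averaged only 9.37 and 8.64 normalized reads in P28 controls, against 146 and 229 in dM1/2. Both passed the filter through the dM1/2 libraries, and the size of their folds rests on these low control levels. In telogen, 0 genes of either list were called.

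The MuvB core, B-Myb and Foxm1 form the complexes that hand cell-cycle genes from pocket protein repression to activation. In this list, 4 of 7 genes were higher at P24 and 6 of 7 at P28, with 0 lower, beside 14.8% and 20% of all genes tested. Mybl2, which encodes B-Myb, held 52.2, 60.7 and 112 normalized reads in P24 controls and 325, 251 and 303 in dM1/2, and 19.1, 16.0 and 15.9 against 190, 182 and 195 at P28 (log2 3.40 ± 0.21 SE, adjusted p = 0.000227). Foxm1 was 4.29-fold and Lin54, the DNA-binding subunit of MuvB, 2-fold higher at P28.

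Of the 8 cyclins and kinases that phosphorylate pocket proteins, 5 were higher at each age and 0 lower. Beside this and the lists that follow, 14.8% of all genes tested were higher at P24 and 20% at P28. Ccnd1, the D-type cyclin that partners Cdk4 and Cdk6, held 400, 554 and 166 normalized reads in P24 controls and 2174, 3042 and 5540 in dM1/2, and at P28 was 13.2-fold higher (log2 3.72 ± 0.33 SE, adjusted p = 0.000525). Ccne1, the cyclin of Cdk2 at the start of S phase and a target of E2F, was 9.48-fold and Ccnd2 3.06-fold higher at P28. Genes that oppose these kinases were higher as well, 3 of 7 CDK inhibitors at P24 and 5 of 7 at P28, with 0 lower. Cdkn2a, which encodes Ink4a and Arf, was 5.86-fold higher at P28 from a low level of 4.2 normalized reads in controls, Cdkn1a, which encodes p21, 5.46-fold and Cdkn2c 2.86-fold. Of 8 apoptotic E2F targets, 7 were tested, 3 were higher at P24 and 4 at P28, with 0 lower. Among those higher at P28 were Bbc3, which encodes Puma (2.88-fold), and Bcl2l11, which encodes Bim (2.14-fold).

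**Figure D4:**
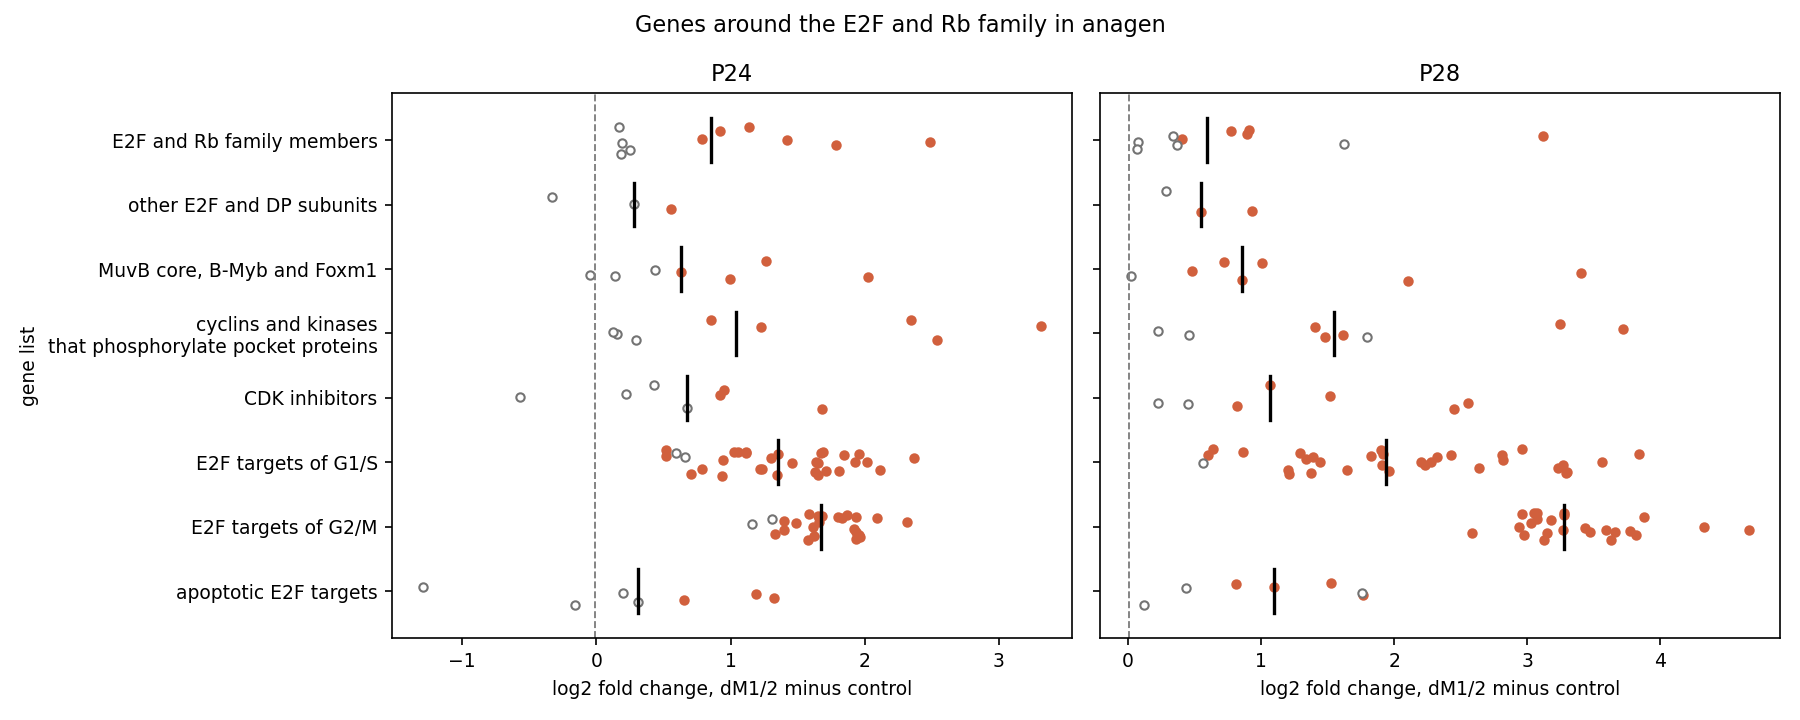
Log2 fold change of dM1/2 against control (x axis) at P24 and P28 for the genes of each list (y axis), filled where the adjusted p is under 0.05 in limma and open otherwise, with a black bar at the list's median and a dashed line at the median of all genes tested. The G2/M targets are filled throughout at P28, with a median of 3.27, while the median of the 10 family members is 0.59.

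By the shape of the profile over the 24 libraries, among 13372 genes outside the family, those most like E2f8 were Ect2, Plk1 and Cdk1, all genes of mitosis, with Pearson r of log2 values of 0.97, 0.96 and 0.96. Those most like E2f1 were Basp1 (0.90), Nkain1 (0.89) and Cdc25b (0.89), and those most like Rbl1 were Hist1h2bn (0.88), Asph (0.86) and Hmmr (0.86). For Rb1, they were Lmo4 (0.88), Bmp7 (0.87) and Senp2 (0.87), and for Rbl2, Acacb (0.89), Dalrd3 (0.87) and Bbs9 (0.87). These values describe libraries that share group, stage, sex and depth.

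Markers of the sorted cells and of other cell types were counted in the same way. Beside them, 14.8% of all genes tested were higher and 11.8% lower at P24, and 20% and 15.6% at P28. Counts near these shares are not read as results about a cell type. Of 15 DP markers, 9 were lower and 1 higher in dM1/2 at P24, and their summed reads, mostly Vcan, were 309613 to 369580 in controls and 157773 to 193838 in dM1/2. At P28, 5 were lower and 3 higher, with sums of 150147 to 440621 and 125566 to 138965. Of the 8 markers of other dermal fibroblasts, 0 were called at P24 and 1 in each direction at P28, with Col1a1 the highest. Of the dermal sheath and muscle list, 1 of 7 tested was lower at each age, with summed reads, mostly Acta2, of 3607 to 12150 in P28 controls and 2846 to 6848 in dM1/2. Follicle keratinocyte markers summed to 90.3 to 646 normalized reads over 14 genes in the anagen libraries, with Trp63 the highest and Krt35 at 0 in P24 dM1/2, and 1 of 9 tested was lower at P24 and 1 of 7 higher at P28. Melanocyte markers, mostly Mitf, summed to 393 to 940 normalized reads with 0 calls. Endothelial markers, mostly Tek, summed to 424 to 1729, with 1 of 6 tested higher at each age and 1 lower at P24. Immune markers, mostly Csf1r, summed to 125 to 1282 with 0 calls. The part of these lists in the differences of the family was not tested. In bulk libraries, fewer cells of a type and less RNA per cell cannot be told apart.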

How the data were processed

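RNA-seq libraries (ribosomal RNA depletion, directional kit, single-end reads) were made from YFP-sorted DP cells of individual mice, with 3 control and 3 dM1/2 libraries at each of the 4 ages. According to the methods and the processing notes, the authors trimmed reads with Trimmomatic, mapped them with TopHat2 to the mm10 genome, counted genes with HTSeq and normalized with DESeq2, and the strand setting of the counting is not given in the sources used here. The deposited signal is a normalized read count per gene, that is reads scaled by a size factor per library, in 4 tables of 25755 genes. Dividing by the step of each library returned whole reads for 100% of values (tolerance 0.001 reads). The 4 tables had been scaled together, and so ages were compared. Columns of the authors' own comparisons (6 in each table) were not used.

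Tests were fitted over all genes averaging 10 normalized reads or more using limma 3.58.1 (R 4.3.3, trend) on log2(normalized reads + 1), and p-values were adjusted by Benjamini-Hochberg and called under 0.05. A log2 fold change on this scale understates the change of low genes. The ages were fitted separately (6 libraries), the stage effect over 24 libraries and ages in controls over 12. P-values measure the spread between libraries of individual mice. Alternatives were a pseudocount of 10, other filters, TMM, edgeR 4.0.16 and DESeq2 1.42.0 on the recovered reads, a single fit, a replicate block, a threshold of 0.01 and leaving out each library. The fits were tested on simulated data. Levels per kb used the exon length of GENCODE (GRCm38), and promoters were those of RefSeq. Libraries of one group differed by more than counting noise.

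The members and lists were chosen with earlier results of these data known. Genes named are the 10 members, E2f5, E2f6, Tfdp2, Hdac1, Hdac2, up to 3 of the largest rises and 3 of the largest falls past the threshold at P28 in each pathway list, the 3 nearest profiles of E2f1, E2f8, Rb1, Rbl1 and Rbl2, and the marker with the most reads in each list. An apoptotic target named by this rule is not reported here. Dpt, Lpar6, Rcbtb2 and Aktip were chosen after their values were seen. Of the markers listed, 69 of 70 were found, and 89 of 89 pathway genes.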

Additional observations from a re-analysis of the deposited data

Results flagged for a closer look

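For E2f1, E2f3, E2f7, Rb1 and Rbl2, the signed log2 effect of dM1/2 against controls was higher in anagen than in telogen. This was a test of the difference itself in limma over the 24 libraries. The difference of effects on the log2 scale was 1.49 ± 0.48 SE for E2f1 (adjusted p = 0.0241), 0.54 ± 0.18 for E2f3 (0.0281), 1.61 ± 0.35 for E2f7 (0.00168), 1.99 ± 0.71 for E2f8 (0.0403), 1.02 ± 0.20 for Rb1 (0.000755) and 0.43 ± 0.13 for Rbl2 (0.0191). For E2f3, the single effects were -0.62 at P20 and 0.14 at P60, and 0.25 and 0.34 in anagen, so that the difference from controls was not larger in size in anagen. E2f8 also passed (1.99 ± 0.71, adjusted p = 0.0403), but it was under the filter at P60 and entered this fit through the other ages. Its contrast used a P60 effect of 1.74 from 0 to 5 reads per library, and 16 of 24 fits without 1 library missed the threshold. The E2f8 value is therefore no measure of a stage difference. Stage, sex and depth cannot be told apart in this contrast.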

How the results depend on the processing

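At P28, the 5 members called became 2 at an adjusted p under 0.01. The replicate numbers were not used as pairs in the main fits, since the deviations of same-numbered libraries correlated over 0.1 in all 3 pairs at no age. The correlations were all positive at P20 (0.21, 0.06 and 0.12) and P60 (0.30, 0.03 and 0.15), so that this rule cannot exclude a pairing there. A fit with the replicate number as a block called 5 members at P24 (without E2f2, adjusted p = 0.0569) and 3 at P28 (without E2f2, 0.0670, and Rbl2, 0.0978). Leaving out 1 library gave 0 to 1 members at P20, 4 to 6 at P24, 2 to 6 at P28 and 0 at P60. For P28 against P24 in dM1/2, it gave 0 to 1. With E2f8 among the members tested, it gave 4 to 6 for the stage effect and 5 to 7 over the ages in controls. For P28 against P24, a pseudocount of 10 gave 1 member in controls, and limma with TMM and edgeR with TMM each gave 1 in dM1/2. In the fit over all 24 libraries, E2f1 passed at P28 (adjusted p = 0.0107) and E2f2 did not (0.0774).

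Among single members, 11 of 427 alternatives turned the direction, all of values near 0. E2f4 log2 fold change, P20, was 0.0030 in edgeR with TMM, 0.00023 with DESeq2 size factors and 0.00065 in DESeq2. E2f4 log2 fold change, P60, was -0.0112 in limma with TMM and -0.0316, -0.0220 and -0.0224 in the same 3 tools. Rbl2 log2 fold change, P60, was -0.0180 in limma with TMM and -0.0217, -0.0127 and -0.0126 in those tools. Of 474 fits without 1 library, 16 turned the direction, with ranges of -0.182 to 0.0831 for E2f4, -0.99 to 0.48 for E2f8 and -0.276 to 0.0751 for Tfdp1 at P20, -0.0348 to 0.181 for Tfdp1 at P28, and -0.11 to 0.18 for E2f4, -0.45 to 0.35 for E2f7 and -0.0566 to 0.0731 for Rbl2 at P60. A filter of 10 normalized reads in every library gave no value for E2f8 at P20 and P28 or for E2f2 at P60. Over all genes, 60 calls at P20 became 668 in DESeq2, 439 with the block and 0 to 1530 without 1 library. The 2073 higher and 1662 lower calls at P24 became 1565 at a threshold of 0.01, 2366 with the block and 2057 to 4012 without 1 library, and the 2820 higher and 2198 lower calls at P28 became 2638 at 0.01 and 3043 to 5788 without 1 library. The cause was not tested. Depth limits E2f8 in telogen, with 0 to 5 reads at P60.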
